A study of Mus musculus with 12 samples.

Results

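The macrophage genes described here are 10 genes of the deposited table of 35275 genes: *Csf1*, *Csf1r*, *Cd68*, *Cd14*, *Mrc1*, *Trem2*, *Lyz2*, *Gpnmb*, *Apoe* and *Cd163*. They were chosen by gene symbol, taking the row with the most reads where a symbol had several, and each of the 10 symbols had 1 row. The reads were counted in kidney tissue samples of C57BL/6J mice at 6 months of age, with 4 mice in each of 3 groups. WT mice carried neither mutation. RC/RC mice carried the hypomorphic RC knock-in allele of *Pkd1* on both chromosomes (Pkd1RC/RC), a slowly progressing model of autosomal dominant polycystic kidney disease. RC/RC:*Casp1*KO mice (Pkd1RC/RC-Casp1KO) carried the same *Pkd1* alleles and, in every cell of the body, a homozygous TALEN-made deletion in *Casp1*, which encodes the protease caspase-1, and all of them descended from 1 mutation. Each group held 2 females and 2 males, but the columns of the table are not tied to sex, so sexes were pooled. The comparison of RC/RC with WT asks which of these genes differed in cystic kidneys, and that of RC/RC:*Casp1*KO with RC/RC asks which differed when caspase-1 was lacking.

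Macrophages take up and digest dead cells, lipid and debris, and they live in every healthy kidney as well as entering injured ones from blood monocytes. Their survival depends on the receptor CSF1R (*Csf1r*), which is bound by colony stimulating factor 1 (*Csf1*) and interleukin 34 (*Il34*), and kidney tubule cells can make *Csf1*. CD68 is a lysosomal membrane protein, lysozyme M (*Lyz2*) digests bacterial walls, CD14 is the co-receptor that hands bacterial lipopolysaccharide to toll-like receptor 4, and the mannose receptor (*Mrc1*) and CD163 take up sugars and hemoglobin. TREM2, GPNMB and apolipoprotein E (*Apoe*) belong to the response of phagocytes to lipid and dying cells. Several of these genes are not specific to macrophages in a kidney, since tubule cells can express *Csf1*, *Cd14* and *Apoe*. Because unsorted kidney tissue was measured, fewer macrophages and less of an RNA per macrophage cannot be told apart in any of the values below.

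Between 18019819 and 24869454 reads were counted on genes in each kidney, and genes of the mitochondrial genome held 7.78% to 12.1% of them. Unless stated otherwise levels are in CPM, the count of a gene scaled to the size of its library after TMM adjustment over the 12 kidneys, and 3 reads in a kidney correspond to 0.115 to 0.166 CPM. Mice are numbered within their group in the order of the table's columns. *Casp1* itself was at 2.05, 1.29, 1.31 and 1.41 CPM in the WT kidneys, 3.33, 3.87, 4.24 and 2.62 CPM in the RC/RC kidneys and 0.382, 0.668, 0.666 and 1.06 CPM in the RC/RC:*Casp1*KO kidneys. Each kidney with the *Casp1* deletion had less than every kidney without it (log2 fold change −2.35, SE 0.32, edgeR adjusted p = 0.00514, against RC/RC), and RC/RC exceeded WT (log2 fold change 1.21, SE 0.25, edgeR adjusted p = 0.0142). The difference of RC/RC:*Casp1*KO from WT did not pass the test (log2 fold change −1.12, SE 0.35, edgeR adjusted p = 0.128). The deletion removes a small part of the gene, so this count measures the remaining *Casp1* RNA and not the deletion itself. The edited allele of *Pkd1* differs from WT by a changed codon, so read counts do not check it, and *Pkd1* passed the test in none of the 3 comparisons (edgeR adjusted p from 0.143 to 0.878).

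RC/RC:*Casp1*KO mouse 4 stood apart from the other 3 mice of its group in the macrophage genes and is therefore described before the comparisons. It had the highest level of its group for 7 of the 10 genes, and for 7 of the 10 it lay at or above the lowest RC/RC mouse. The latter 7 include *Csf1r* and *Cd163*, for which other mice of its group also lay above the lowest RC/RC mouse. The other 3 mice of its group lay below every RC/RC mouse for 7 of the 10. The comparisons with RC/RC mice were made after the levels were seen and no share of all genes is given for them. These counts therefore only describe the members. Among all 15243 genes tested in RC/RC against WT, mouse 4 was the highest of its group for 29.8%, and among the 1487 genes called higher in RC/RC for 74.4%, so the pattern reached beyond the macrophage genes. Its *Casp1* level, 1.06 CPM, was the highest of its group and below all 8 mice without the deletion. Its 20335245 reads and 8.58% of reads in mitochondrial genes lay within the range of the other 11 libraries. Results that rest on this mouse are given with and without it.

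In RC/RC kidneys 7 of the 10 macrophage genes were higher than in WT kidneys, and no member was lower. The 7 were *Csf1*, *Cd68*, *Cd14*, *Mrc1*, *Trem2*, *Lyz2* and *Gpnmb*, and their increases ran from 2.74-fold (*Mrc1*) to 14.7-fold (*Gpnmb*). All 10 passed the filter on low counts, and the test was the quasi-likelihood F test of edgeR over 8 mice, with Benjamini-Hochberg adjustment over all 15243 genes and a threshold of 0.05. Of all genes tested, 9.76% were called higher and 3.18% lower, and 12.9% in either direction. The groups did not overlap for 8 of the 10 members, in each case with RC/RC higher, against 12.6% of all genes with RC/RC higher and 19.6% in either direction. The estimate was above 0 for 10 of the 10 members and for 47.8% of all genes. The median log2 fold change was 1.5 over the members and −0.02 over all genes tested. *Trem2*, *Gpnmb* and *Cd163* were near the limit of counting in WT, and *Trem2* and *Gpnmb* passed the filter through their RC/RC counts. The same 7 members were called with each of the 8 mice left out in turn.

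**Figure D1:**
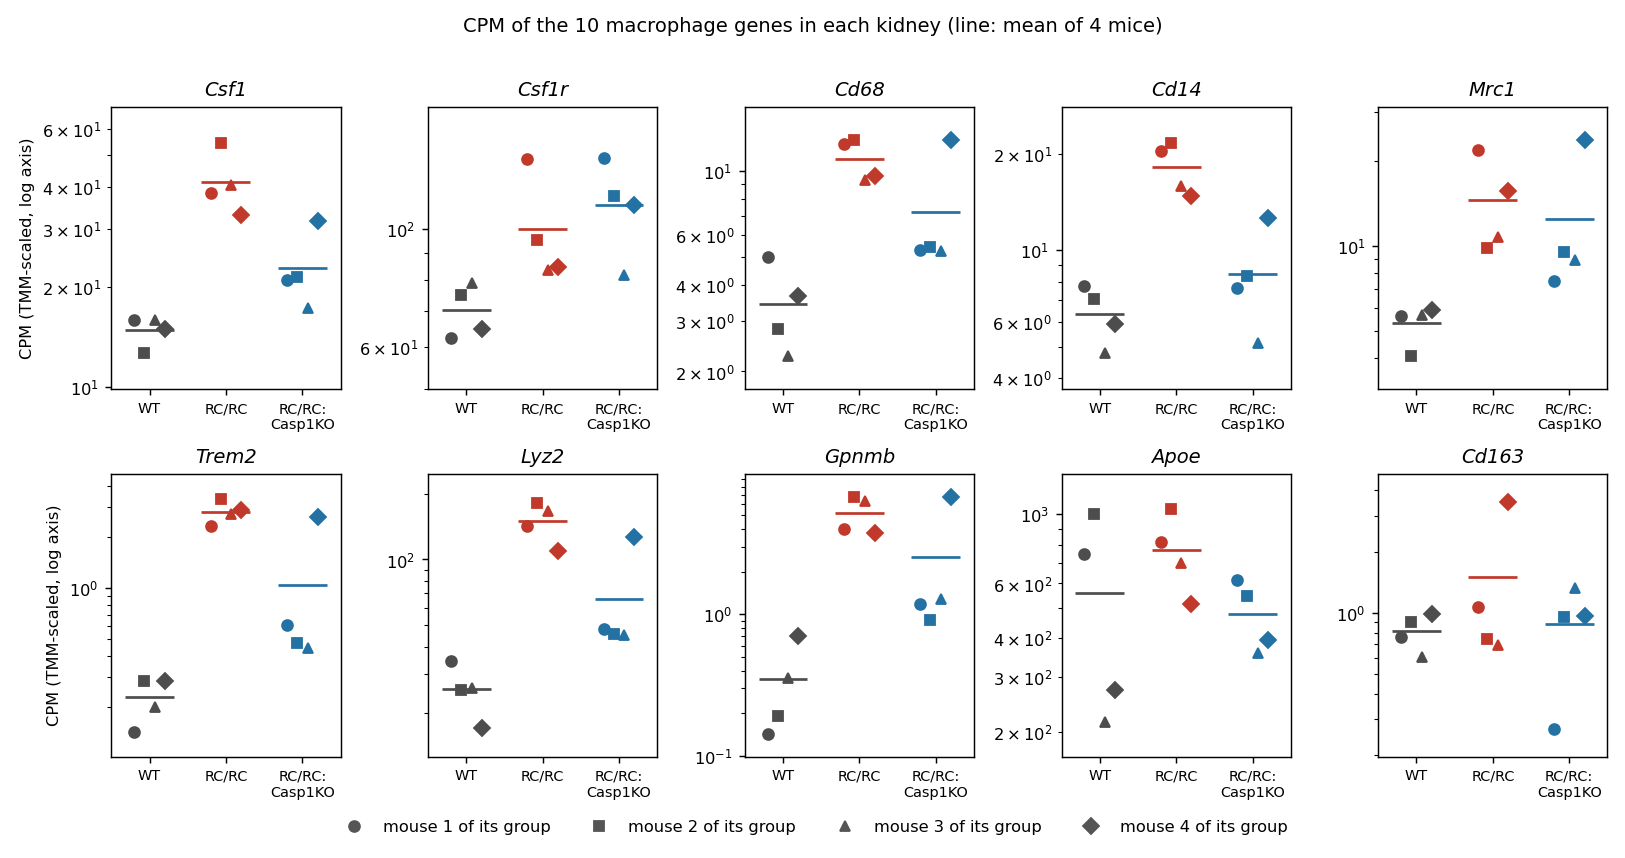
Level of each of the 10 macrophage genes in every kidney, in CPM on a log axis, with 1 panel per gene, 1 symbol shape per mouse number within its group and a line at the mean of 4 mice. RC/RC mice lie above all WT mice in 8 of the 10 panels, and RC/RC:Casp1KO mouse 4 (diamond) lies well above the other 3 mice of its group for Cd68, Mrc1, Trem2, Lyz2 and Gpnmb.

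Of the ligand and receptor pair, the ligand differed more in RC/RC against WT. *Csf1* (ENSMUSG00000014599, chr3:107741048-107760469 in mm10, minus strand) was at 15.9, 12.7, 16.0 and 14.9 CPM in the WT kidneys, 38.4, 54.2, 40.6 and 33.0 CPM in the RC/RC kidneys and 21.0, 21.5, 17.3 and 31.7 CPM in the RC/RC:*Casp1*KO kidneys. The lowest RC/RC mouse was above the highest mouse of either other group, with the RC/RC:*Casp1*KO kidneys in the gap between WT and RC/RC. Means were 14.8 ± 1.53 CPM in WT, 41.6 ± 9.0 in RC/RC and 22.9 ± 6.19 in RC/RC:*Casp1*KO (SD, n = 4), and *Csf1* rose in RC/RC against WT (log2 fold change 1.48, SE 0.16, edgeR adjusted p = 0.000721). *Csf1r* (ENSMUSG00000024621, chromosome 18), the receptor whose signal macrophages need to survive, was at 62.2, 74.9, 79.2 and 64.8 CPM in the WT kidneys, 135, 95.3, 83.7 and 84.8 CPM in the RC/RC kidneys and 136, 115, 81.8 and 111 CPM in the RC/RC:*Casp1*KO kidneys. Every RC/RC mouse was above every WT mouse, but 3 of the 4 only slightly so, and the difference did not pass the test (log2 fold change 0.50, SE 0.17, edgeR adjusted p = 0.0828). *Csf1r* overlaps *Hmgxb3* on the other strand, and because it is not stated whether the counting used strand, the reads of the overlap cannot be assigned to one gene with certainty. *Hmgxb3* held 7930 reads over the 12 mice against 24550 for *Csf1r*, and it averaged 32.8 ± 2.95 CPM in the WT kidneys and 27.7 ± 2.60 CPM in RC/RC (SD, n = 4, log2 fold change −0.24, edgeR adjusted p = 0.179).

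Among the uptake and recognition genes, *Cd68*, *Cd14* and *Mrc1* were higher in every RC/RC mouse than in every WT mouse, and *Cd163* was not. *Cd68* (ENSMUSG00000018774, chr11:69664213-69666153, minus strand), the lysosomal marker, was at 5.01, 2.81, 2.26 and 3.68 CPM in the WT kidneys, 12.4, 12.8, 9.35 and 9.66 CPM in the RC/RC kidneys and 5.31, 5.44, 5.27 and 12.8 CPM in the RC/RC:*Casp1*KO kidneys. RC/RC mice lay above all WT mice (log2 fold change 1.68, SE 0.25, edgeR adjusted p = 0.00325), while RC/RC:*Casp1*KO mice 1 to 3 were just above the highest WT mouse and mouse 4 was level with the highest RC/RC mouse. *Cd14* (ENSMUSG00000051439, chromosome 18) was at 7.72, 7.05, 4.78 and 5.89 CPM in the WT kidneys, 20.4, 21.6, 15.9 and 14.8 CPM in the RC/RC kidneys and 7.64, 8.30, 5.16 and 12.6 CPM in the RC/RC:*Casp1*KO kidneys. These 4 RC/RC values were above the 8 others, and *Cd14* rose in RC/RC against WT (log2 fold change 1.51, SE 0.19, edgeR adjusted p = 0.00157). *Mrc1* (ENSMUSG00000026712, chr2:14229414-14332057, plus strand) was at 5.63, 4.05, 5.69 and 5.94 CPM in the WT kidneys, 22.0, 9.86, 10.8 and 15.6 CPM in the RC/RC kidneys and 7.49, 9.54, 8.93 and 23.8 CPM in the RC/RC:*Casp1*KO kidneys. WT was the lowest group without overlap, *Mrc1* rose in RC/RC against WT (log2 fold change 1.45, SE 0.27, edgeR adjusted p = 0.00811), and the highest of the 12 mice was RC/RC:*Casp1*KO mouse 4. *Cd163* (ENSMUSG00000008845, chr6:124304651-124330527, plus strand), the hemoglobin scavenger receptor, was at 0.763, 0.905, 0.604 and 0.990 CPM in the WT kidneys, 1.07, 0.742, 0.698 and 3.52 CPM in the RC/RC kidneys and 0.267, 0.954, 1.33 and 0.967 CPM in the RC/RC:*Casp1*KO kidneys. The groups overlapped, and the RC/RC mean rested on mouse 4 (log2 fold change 0.89, SE 0.54, edgeR adjusted p = 0.297, and a log2 fold change of 0.05 without that mouse).

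*Lyz2* (ENSMUSG00000069516, chr10:117277334-117282274, minus strand) was at 34.5, 25.4, 26.0 and 17.0 CPM in the WT kidneys, 142, 182, 166 and 109 CPM in the RC/RC kidneys and 48.0, 45.8, 45.1 and 126 CPM in the RC/RC:*Casp1*KO kidneys. The WT mice were lowest, RC/RC:*Casp1*KO mice 1 to 3 lay within 3 CPM of each other just above them, and mouse 4 lay among the RC/RC mice. *Lyz2* rose in RC/RC against WT (log2 fold change 2.54, SE 0.23, edgeR adjusted p = 0.000358). Its neighbor *Lyz1*, the Paneth cell lysozyme gene, shares 95.5% identity over 1272 aligned bases of transcript, so reads can be split between them. *Lyz1* held 2 to 37 reads per kidney, or 0.233 ± 0.184 CPM on average in the WT kidneys against 1.00 ± 0.674 CPM in RC/RC (SD, n = 4).

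*Trem2* and *Gpnmb*, a receptor for lipids and apolipoproteins and a lysosome-associated membrane glycoprotein, had the largest fold changes of the 10 in RC/RC against WT. Their WT levels per length were the lowest of the 10. *Trem2* (ENSMUSG00000023992, chr17:48346401-48354147, plus strand) had 3, 6, 4 and 6 reads in the WT mice, 61, 63, 51 and 67 in the RC/RC mice and 16, 10, 8 and 57 in the RC/RC:*Casp1*KO mice, which is 0.143, 0.286, 0.201 and 0.283 CPM, 2.33, 3.34, 2.74 and 2.88 CPM and 0.611, 0.477, 0.444 and 2.63 CPM. The 3 groups did not overlap except through RC/RC:*Casp1*KO mouse 4, and *Trem2* rose in RC/RC against WT (log2 fold change 3.59, SE 0.31, edgeR adjusted p = 0.000244). *Gpnmb* (ENSMUSG00000029816, chr6:49036518-49058182, plus strand) had 3, 4, 7 and 15 reads in the WT mice and was at 0.143, 0.191, 0.352 and 0.707 CPM in the WT kidneys, 4.02, 6.73, 6.34 and 3.78 CPM in the RC/RC kidneys and 1.18, 0.906, 1.28 and 6.73 CPM in the RC/RC:*Casp1*KO kidneys. RC/RC mice lay above all WT mice (log2 fold change 3.87, SE 0.46, edgeR adjusted p = 0.00111), and RC/RC:*Casp1*KO mouse 4 was level with the highest RC/RC mouse. *Apoe* (ENSMUSG00000002985, chr7:19696109-19699166, minus strand), which carries lipid out of cells, was at 746, 1003, 216 and 273 CPM in the WT kidneys, 815, 1037, 699 and 517 CPM in the RC/RC kidneys and 617, 547, 359.8 and 395 CPM in the RC/RC:*Casp1*KO kidneys. WT mice 1 and 2 were above every RC/RC:*Casp1*KO mouse and WT mice 3 and 4 below all 10 other mice, a spread of 4.64-fold within WT, and *Apoe* did not pass the test against RC/RC (log2 fold change 0.46, SE 0.46, edgeR adjusted p = 0.537).

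The promoter windows of *Gpnmb*, *Trem2* and *Cd68* are shown because these 3 of the called members hold a match to the AP-1 motif. They are RefSeq windows of 300 bases in GRCm38.p6, the patched mm10, from 250 bases before the start site to 50 after it, read 5′ to 3′ on the strand of the gene. Capitals mark matches to any of 5 motifs searched on both strands: GAGGAAGT (PU.1, an ETS factor), CACGTG and TCATGTG (E-box and M-box of the MITF and TFE factors), TGANTCA (AP-1) and TTGCNNAA (C/EBP).
*Gpnmb* (chr6:49036268-49036567, plus strand): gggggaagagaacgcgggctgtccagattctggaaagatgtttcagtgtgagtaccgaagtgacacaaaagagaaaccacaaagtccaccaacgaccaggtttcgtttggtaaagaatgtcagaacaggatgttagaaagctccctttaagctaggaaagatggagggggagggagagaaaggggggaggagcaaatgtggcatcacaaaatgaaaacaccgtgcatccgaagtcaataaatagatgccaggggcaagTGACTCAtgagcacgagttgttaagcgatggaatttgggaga
*Trem2* (chr17:48346151-48346450, plus strand): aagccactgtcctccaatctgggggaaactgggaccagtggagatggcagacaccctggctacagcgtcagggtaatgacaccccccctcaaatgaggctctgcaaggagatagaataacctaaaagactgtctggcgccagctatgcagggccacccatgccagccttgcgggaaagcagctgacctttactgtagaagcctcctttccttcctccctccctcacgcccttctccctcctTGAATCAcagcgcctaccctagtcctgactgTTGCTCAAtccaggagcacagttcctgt
*Cd68* (chr11:69666121-69666420, minus strand): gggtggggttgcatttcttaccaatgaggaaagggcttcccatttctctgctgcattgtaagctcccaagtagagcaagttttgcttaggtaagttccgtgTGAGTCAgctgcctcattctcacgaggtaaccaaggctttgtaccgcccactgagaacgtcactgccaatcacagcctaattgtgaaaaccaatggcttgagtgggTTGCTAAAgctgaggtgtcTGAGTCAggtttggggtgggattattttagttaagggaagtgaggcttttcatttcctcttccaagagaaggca
In *Gpnmb* the AP-1 match TGACTCA begins 8 bases after the start site. In *Trem2* the AP-1 match TGAATCA begins 9 bases before it and a C/EBP match, TTGCTCAA, 22 bases after it. *Cd68* holds the AP-1 match TGAGTCA at 149 and at 24 bases before the start site and the C/EBP match TTGCTAAA at 43 bases before it. Windows were found for 8 of the 10 members, all but *Csf1r* and *Cd14*, and for 3 of these 8 genes the window held TGANTCA, against 8.97% of all 27025 genes with a window. TTGCNNAA was in the windows of 2 of the 8 against 12.2% of all genes. The letters of GAGGAAGT, CACGTG and TCATGTG were in no member's window, and they were in 3.69%, 8.09% and 4.31% of all genes. A match is a run of letters and not a measured binding site.

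Of the 10 macrophage genes, 2 were lower in RC/RC:*Casp1*KO kidneys than in RC/RC kidneys, *Csf1* and *Cd14*, and no member was higher. *Csf1* fell by 0.87 on the log2 scale (SE 0.20, edgeR adjusted p = 0.0293) and *Cd14* by 1.12 (SE 0.25, edgeR adjusted p = 0.0259), and in both cases the highest RC/RC:*Casp1*KO kidney was below the lowest RC/RC kidney. Of all 15428 genes tested 4.41% were called lower, 7.23% higher and 11.6% in either direction, and 8.65% showed this separation. The estimate was above 0 for 1 of the 10 members and for 47.5% of all genes, with a median over the members of −0.85 against −0.03 over all genes, and the 1 was *Csf1r* (log2 fold change 0.15, SE 0.19, edgeR adjusted p = 0.629). Not past the threshold were *Lyz2* (log2 fold change −1.18, SE 0.34, edgeR adjusted p = 0.0523), *Trem2* (log2 fold change −1.45, SE 0.54, edgeR adjusted p = 0.104), *Gpnmb* (−1.06, edgeR adjusted p = 0.258), *Cd163* (−0.83, edgeR adjusted p = 0.395), *Apoe* (−0.68, edgeR adjusted p = 0.0941), *Cd68* (−0.63, edgeR adjusted p = 0.179) and *Mrc1* (−0.24, edgeR adjusted p = 0.701).

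Which members passed in this comparison depended on single mice. Without RC/RC:*Casp1*KO mouse 4 the number called lower was 6, with *Trem2* (−2.44, edgeR adjusted p = 0.00689), *Gpnmb* (−2.21, edgeR adjusted p = 0.00841), *Lyz2* (−1.69, edgeR adjusted p = 0.00599) and *Cd68* (−1.05, edgeR adjusted p = 0.0123) joining *Csf1* and *Cd14*, where 4.42% of all genes were called lower. Mice 1 to 3 of this group had a mean of 46.3 ± 1.53 CPM for *Lyz2* and 0.511 ± 0.0888 CPM for *Trem2* (SD, n = 3), and mouse 4 had 126 and 2.63 CPM. The mouse was set apart because of these levels, so the 6 are a description of the other mice. In the other direction, 0 members were called without RC/RC mouse 2, RC/RC mouse 3, RC/RC:*Casp1*KO mouse 1 or RC/RC:*Casp1*KO mouse 2, and only *Cd14* without RC/RC:*Casp1*KO mouse 3. Calls were lost over the whole table in these fits. Of all genes 0.864%, 0.411%, 0.505%, 0.369% and 0.83% were called lower in them, in the same order, against 4.41% with all mice. With all 8 mice, 5 members had an unadjusted edgeR p under 0.05, with no share of all genes at that threshold given. DESeq2 called 5 lower, *Csf1*, *Cd14*, *Trem2*, *Lyz2* and *Apoe*, against 5.97% of all genes with DESeq2. With library size alone edgeR called 0 members, with estimates of −0.82, edgeR adjusted p = 0.0656 for *Csf1* and −1.06, edgeR adjusted p = 0.0588 for *Cd14*, and *Lyz2* was called with a minimum of 1 count (−1.18, edgeR adjusted p = 0.049) and in 1 fit over 12 mice (−1.17, edgeR adjusted p = 0.0425).

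Between RC/RC:*Casp1*KO and WT kidneys edgeR called 0 of the 9 members tested, and *Trem2* was left out by the filter on low counts. Of all 15346 genes, 1.13% were called higher and 2.03% in either direction. The levels were above WT without overlap for 7 of the 10 members, *Csf1*, *Csf1r*, *Cd68*, *Mrc1*, *Trem2*, *Lyz2* and *Gpnmb*, against 7.41% of all genes tested, and 0 members were below WT without overlap, against 6.5%, or 13.9% in either direction. Log2 fold changes of the 6 of these that were tested ran from 0.63 for *Csf1* (edgeR adjusted p = 0.114) to 2.84 for *Gpnmb* (edgeR adjusted p = 0.106), and the lowest p was that of *Csf1r* (log2 fold change 0.66, SE 0.15, edgeR adjusted p = 0.0658). Without RC/RC:*Casp1*KO mouse 4 the estimates were 0.43 for *Csf1*, 0.66 for *Csf1r*, 0.64 for *Cd68*, 0.70 for *Mrc1*, 0.85 for *Lyz2* and 1.67 for *Gpnmb*, and 0 members were called. The other 3 members overlapped with WT: *Cd14* (0.41, edgeR adjusted p = 0.394), *Cd163* (0.09, edgeR adjusted p = 0.922) and *Apoe* (−0.22, edgeR adjusted p = 0.807). At an unadjusted edgeR p under 0.05 there were 6 members, all higher, with no share of all genes at that threshold given. DESeq2 called 6 higher, against 3.35% of all genes with DESeq2. Without RC/RC:*Casp1*KO mouse 3, which had the lowest *Csf1r* of its group, *Csf1r* was called (0.78, edgeR adjusted p = 0.0244). The comparison shares its mice with both of the others.

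**Figure D2:**
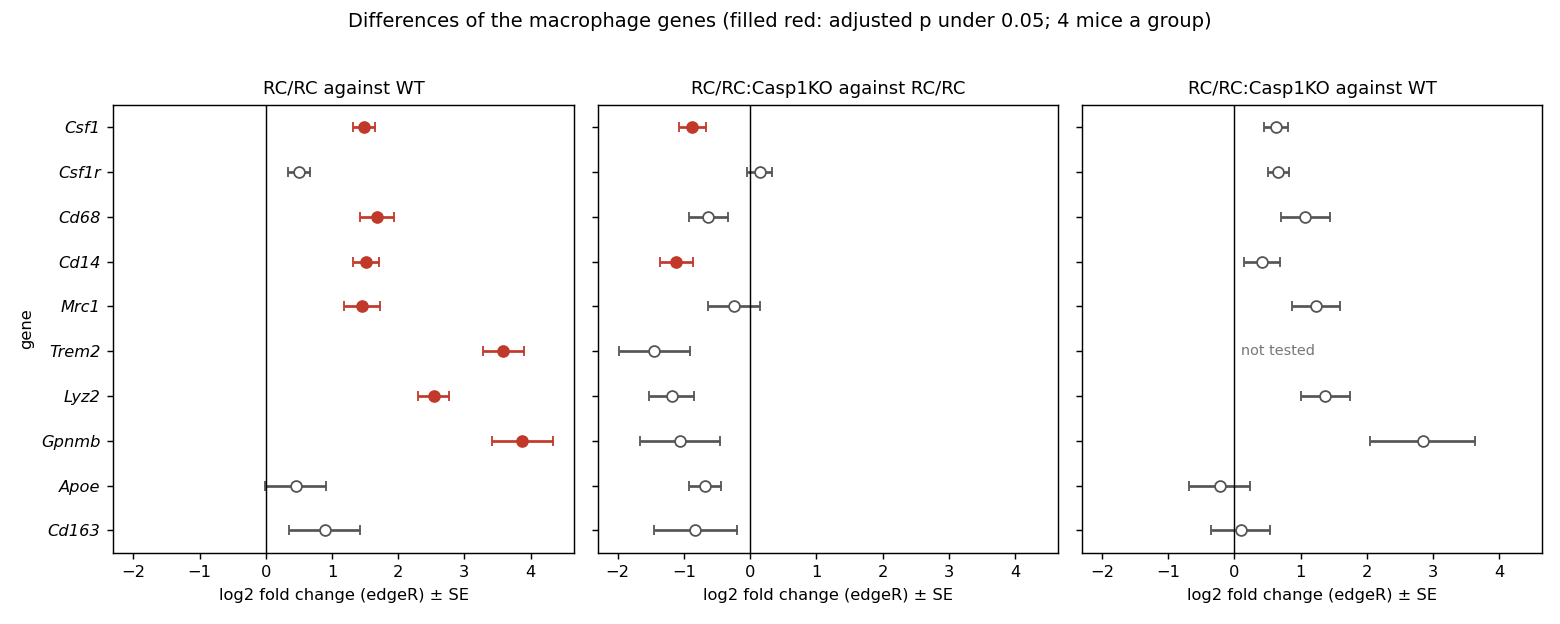
Log2 fold change of each macrophage gene in the 3 comparisons, with bars of 1 SE from edgeR fits of 8 mice and filled red points where the adjusted p was under 0.05. In RC/RC against WT 7 points are filled and all lie right of 0, in RC/RC:Casp1KO against RC/RC Csf1 and Cd14 are filled and lie left of 0, and in RC/RC:Casp1KO against WT none is filled.

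A ratio between 2 genes of the same library does not depend on the scaling between libraries, and each member was therefore also set against *Csf1r*. In RC/RC against WT, 7 of the 9 ratios were higher without overlap, those of *Csf1*, *Cd68*, *Cd14*, *Mrc1*, *Trem2*, *Lyz2* and *Gpnmb*, against 4.26% of the ratios of all genes tested. The log2 ratio of *Lyz2* to *Csf1r* was −1.49 ± 0.456 in WT and 0.59 ± 0.448 in RC/RC (SD, n = 4), below 0 in every WT kidney and above 0 in every RC/RC kidney. For *Csf1* the means were −2.24 and −1.26, a difference of 0.98, and for *Gpnmb* the difference was 3.65. The ratios of *Apoe* and *Cd163* overlapped between these groups. In RC/RC:*Casp1*KO against RC/RC, the ratios of *Cd14* (difference −1.32) and *Apoe* (−0.83) were lower without overlap, against 4.96% of all genes, and that of *Csf1* overlapped at its ends (−1.03). Against WT, all 9 ratios of the RC/RC:*Casp1*KO mice overlapped, among them those of *Csf1* (difference −0.05) and *Cd14* (−0.28). The ratios of 33.1% of all genes did not overlap in that comparison, in either direction. These 27 ratios were not tested, and all share the *Csf1r* counts.

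**Figure D3:**
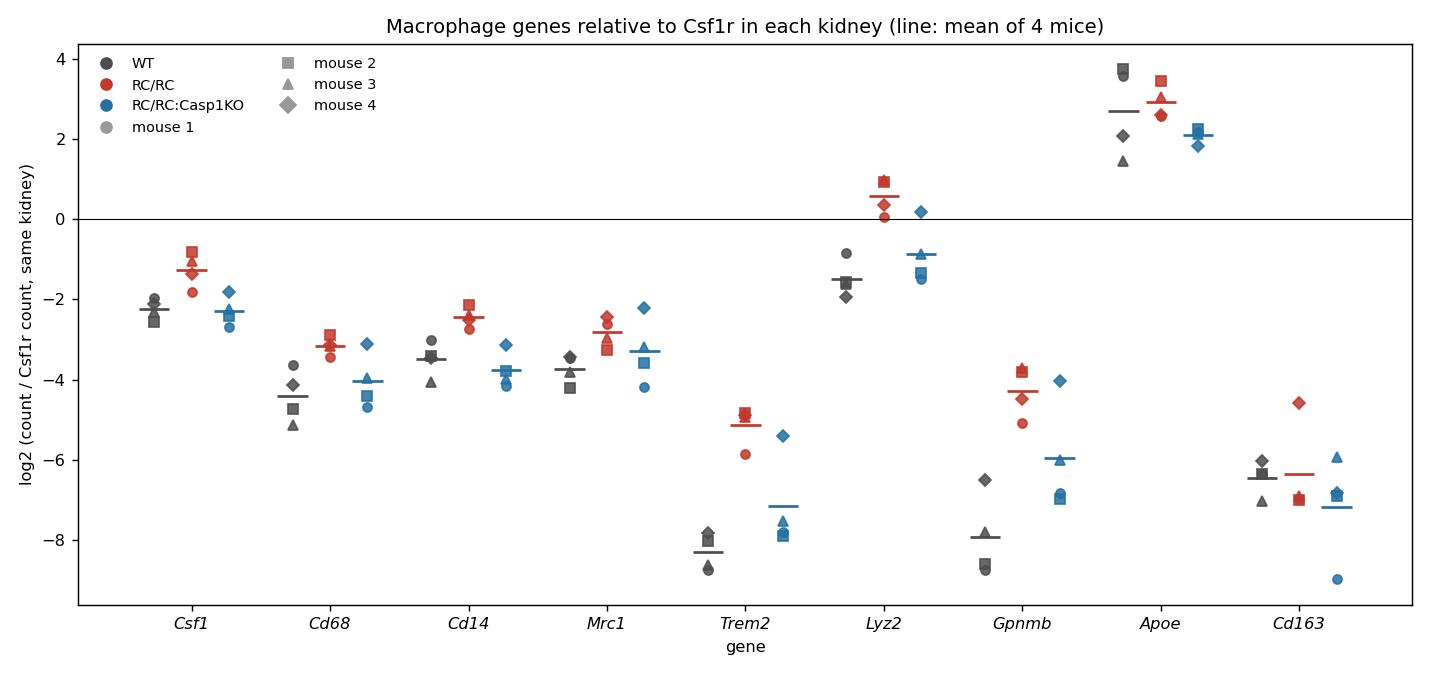
Log2 ratio of each member's count to the Csf1r count in the same kidney, with 1 point per mouse and a line at the mean of 4 mice. RC/RC mice (red) lie above all WT mice (grey) for 7 of the 9 genes, and the RC/RC:Casp1KO mice (blue) overlap the WT mice for all 9.

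Compared per length, *Apoe* was the most abundant of the 10 in every group and *Trem2*, *Gpnmb* and *Cd163* the least. In FPKM (counts scaled to gene length and to the reads counted in the kidney), WT means were 382 ± 255 for *Apoe*, 19.3 ± 5.61 for *Lyz2*, 14.2 ± 1.68 for *Csf1r*, 3.84 ± 0.780 for *Cd14*, 3.38 ± 0.407 for *Csf1*, 2.66 ± 0.945 for *Cd68* and 0.945 ± 0.162 for *Mrc1* (SD, n = 4). *Cd163* (0.172 FPKM), *Gpnmb* (0.0867 FPKM) and *Trem2* (0.0451 FPKM) followed. The ranges of *Lyz2* and *Csf1r* overlapped in WT, as did those of *Cd14*, *Csf1* and *Cd68* one after the other, and those of *Cd163*, *Gpnmb* and *Trem2*. In RC/RC the order of the first 7 genes was the same, *Lyz2* at 120 ± 28.1 FPKM stood clear of *Csf1r* at 21.7 ± 6.53 FPKM, and *Gpnmb* (1.39 ± 0.415) and *Trem2* (0.597 ± 0.0917) had passed *Cd163* (0.333 ± 0.283). *Trem2* and *Cd163* overlapped there. Among the RC/RC:*Casp1*KO mice each gene from *Cd68* at 6.14 ± 3.33 FPKM down to *Cd163* at 0.202 ± 0.0964 FPKM overlapped with the next below it.

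By a fixed measure of likeness, the 5 genes whose pattern over the 12 mice was nearest to that of *Csf1r* were *Ddx58*, *Zfp275*, *Iqgap1*, *Arrdc1* and *Jag1*. The measure was the root mean square difference of log2 CPM centered on each gene's mean, over 11342 genes of at least 5 CPM on average, and it was 0.148 to 0.165 for these 5, against a spread of 0.362 for *Csf1r* itself. None of them is on the lists of macrophage genes used below. The 5 nearest to *Trem2* were *Socs3*, *Col12a1*, *Basp1*, *Aoc1* and *Mmp2*, at 0.453 to 0.490 against a spread of 1.42 for *Trem2*. The list of nearest genes describes these 12 kidneys only.

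The other macrophage genes were examined in 10 lists with 115 genes, none of them among the 10, and 89 of the 115 passed the filter in RC/RC against WT. Of these, 51 were called higher in RC/RC and 0 lower by edgeR, against 9.76% and 3.18% of all genes, and 2 were lower at an unadjusted p under 0.05. DESeq2 called 57 higher and 2 lower, *Mertk* and *Nr4a1*, of 112 tested, against 8.45% and 4.32% of all genes. Genes read almost only in RC/RC kidneys pass the filter through that group, so the share of genes tested is no measure of the lists. The pan-macrophage list was called for 15 of 16 genes, with a median log2 fold change of 1.69. Its most abundant gene per length was *C1qa* (41.4 FPKM on average; log2 fold change 1.73, SE 0.19, adjusted p = 0.000688), which with *C1qb* and *C1qc* encodes the complement component C1q, and its largest changes were in the IgG receptor *Fcgr1* (2.19, SE 0.34, adjusted p = 0.00375), the fractalkine receptor *Cx3cr1* (1.99, SE 0.30, adjusted p = 0.00315) and the adaptor *Tyrobp* (1.87, SE 0.24, adjusted p = 0.00148), through which TREM2 signals. *Mertk*, a receptor for dying cells, was not called by edgeR (−0.52, SE 0.17, adjusted p = 0.0841) and was lower with DESeq2 (−0.54, DESeq2 adjusted p = 0.0432). The list summed to 263, 193, 192 and 211 CPM in the WT kidneys, 565, 522, 463 and 435 CPM in the RC/RC kidneys and 243, 259.9, 215 and 527 CPM in the RC/RC:*Casp1*KO kidneys, so mouse 4 of the last group lay within the RC/RC range and its other 3 mice within the WT range.

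In the lists for subsets of macrophages and for monocytes, all edgeR calls were again higher in RC/RC. Of the resident and perivascular macrophage list, 6 of 12 genes were called, led by *F13a1* (3.15, SE 0.61, adjusted p = 0.00979), *Mgl2* (2.01, SE 0.19, adjusted p = 0.000369) and *Clec10a* (1.84, SE 0.36, adjusted p = 0.00992), and its most abundant gene, the scavenger receptor *Stab1* (6.21 FPKM), had the smallest increase of the 6 (0.48, SE 0.12, adjusted p = 0.0309). Of 11 monocyte genes 5 were called, led by *Ms4a4c* (2.33, SE 0.40, adjusted p = 0.00591), *Ly6c2* (2.25, SE 0.34, adjusted p = 0.00316) and *Plac8* (1.92, SE 0.23, adjusted p = 0.00108), and *Ace*, the most abundant of the list at 44.9 FPKM and also a tubule brush border gene, was not (−0.24, SE 0.30, adjusted p = 0.621). Scavenger and pattern receptors were called for 6 of 12, led by *Clec4n* (2.84, SE 0.37, adjusted p = 0.00182), *Msr1* (2.07, SE 0.33, adjusted p = 0.00444) and *Clec7a* (2.07, SE 0.30, adjusted p = 0.0027), and the abundant lipid receptor *Cd36* (65.3 FPKM) was not (−0.45, SE 0.42, adjusted p = 0.509).

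The list nearest to *Trem2* and *Gpnmb*, the lipid-associated and damage-associated programme, was called for 6 of 22 genes: *Ch25h* (2.87, SE 0.35, adjusted p = 0.0013), which makes 25-hydroxycholesterol, the cathepsins *Ctsk* (2.08, SE 0.28, adjusted p = 0.00209) and *Ctss* (1.77, SE 0.17, adjusted p = 0.00041), *Lgals3*, *Axl* and *Itgax*. *Spp1*, its most abundant gene at 1329 FPKM and one that kidney tubules also make, was not called (1.41, SE 0.49, adjusted p = 0.092). Apolipoproteins and *Apoe* receptors were called for 1 of 9, a share near that of all genes, *Apod* (4.32, SE 1.11, adjusted p = 0.0332), and *Vldlr* (13.4 FPKM) was not (−0.32, SE 0.17, adjusted p = 0.259). Of 9 genes of classical activation 3 were called: *Nos2* (1.52, SE 0.26, adjusted p = 0.00576), *Ptgs2* (1.44, SE 0.36, adjusted p = 0.0304) and *Cd86* (1.31, SE 0.27, adjusted p = 0.0133). Of 9 genes of alternative activation 5 were called, led by *Retnla* (5.10, SE 0.97, adjusted p = 0.0094), *Ccl17* (2.54, SE 0.68, adjusted p = 0.0402) and *Ccl22* (2.38, SE 0.38, adjusted p = 0.00421), with the interleukin 4 receptor *Il4ra* the most abundant (5.51 FPKM, 0.79, SE 0.14, adjusted p = 0.00689). No other gene of either activation list passed the filter, which genes read mostly in RC/RC kidneys pass through that group. In RC/RC:*Casp1*KO against WT 3 alternative activation genes passed it. Adjusted p-values of these genes are from edgeR.

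Of 10 myeloid transcription factors, 3 were called higher in RC/RC against WT: *Runx1* (2.37, SE 0.31, adjusted p = 0.00195), *Spi1* (2.06, SE 0.26, adjusted p = 0.0016), which encodes PU.1, and *Irf8* (1.19, SE 0.15, adjusted p = 0.00167). *Maf*, the most abundant of the list at 43.6 FPKM, was not (−0.37, SE 0.18, adjusted p = 0.209), and the list's median log2 fold change was 0.00. In the CSF family, *Csf2rb*, the shared receptor chain for GM-CSF, interleukin 3 and interleukin 5, was called (1.44, SE 0.23, adjusted p = 0.00405). The other ligand of CSF1R, *Il34* (9.86 FPKM, the most abundant of the list), was not called in edgeR (0.93, SE 0.40, adjusted p = 0.157). *Csf2*, which encodes GM-CSF, had 0 reads in all 12 mice, which allows up to 0.115 to 0.166 CPM per kidney.

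Of the 91 list genes tested in RC/RC:*Casp1*KO against RC/RC, 12 were called lower and 0 higher (2 were higher at an unadjusted edgeR p under 0.05, and DESeq2 called 31 lower and 2 higher, beside 5.97% and 7.35% of all genes), against 4.41% of all genes called lower. The 12 were *Spi1* (−1.05, SE 0.28, adjusted p = 0.0416), *C1qa* (−1.22, SE 0.34, adjusted p = 0.0492), *C1qb* (−1.09, SE 0.30, adjusted p = 0.0465), *Pf4* (−1.15, SE 0.25, adjusted p = 0.0244), *Plac8* (−1.02, SE 0.21, adjusted p = 0.0217), the lectin *Colec12* (−1.18, SE 0.22, adjusted p = 0.016), the lipopolysaccharide-binding protein *Lbp* (−1.46, SE 0.33, adjusted p = 0.0271), and, from the lipid-associated list, *Ch25h* (−1.99, SE 0.35, adjusted p = 0.0116), *Ctsk* (−1.44, SE 0.28, adjusted p = 0.0179), *Lgals3*, *Cd9* and *Ctsd*. LBP passes lipopolysaccharide to CD14, the member with the largest called decrease. List genes can be read from other kidney cells too, as with *Spp1* and *Ace*, and which cells held the 12 RNAs was not tested. The calls depended on the scaling and on single mice: 3 genes were called lower with library size alone, 3, 2, 18 and 11 without RC/RC mice 2, 3, 1 and 4, and 2, 2, 3 and 35 without RC/RC:*Casp1*KO mice 1, 2, 3 and 4. The genes called lower over the whole table went from 681 to 136 and 65 without RC/RC mice 2 and 3, to 1300 and 899 without RC/RC mice 1 and 4, to 79, 58 and 131 without RC/RC:*Casp1*KO mice 1, 2 and 3, and to 688 without mouse 4 of that group. Because RC/RC:*Casp1*KO mouse 4 was set apart for its macrophage gene levels, the 35 called without it only describe the other mice. These 35 held 15 of the 16 pan-macrophage genes, which had 2 with all mice, and 9 of the 12. The other 3 of the 12 had similar estimates with all mice and without mouse 4, at −0.93 and −0.996 for *Lgals3*, −0.51 and −0.50 for *Cd9*, and −0.46 and −0.48 for *Ctsd*, and were not called without it (adjusted p = 0.0506, 0.0625 and 0.0706). Against WT, 1 list gene was higher in RC/RC:*Casp1*KO mice, the cholesterol exporter *Abca1* (1.31, SE 0.20, adjusted p = 0.0185), and 1 lower, the transcription factor *Cebpb* (−1.30, SE 0.22, adjusted p = 0.025), of 87 tested, against 1.13% and 0.893% of all genes with edgeR. At an unadjusted edgeR p under 0.05, 33 were higher and 5 lower, with no share of all genes at that threshold given. DESeq2 called 12 higher and 4 lower of 114, against 3.35% and 2.47% of all genes with DESeq2. With each mouse left out in turn, edgeR called 0 to 4 higher and 0 to 2 lower, the most without RC/RC:*Casp1*KO mouse 3, and 0 and 1 without mouse 4. Without mouse 4 *Abca1* was not called at an unchanged estimate (1.31, adjusted p = 0.0501), and *Cebpb* was called lower (−1.48, adjusted p = 0.0242). Adjusted p-values in this paragraph are from edgeR.

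**Figure D4:**
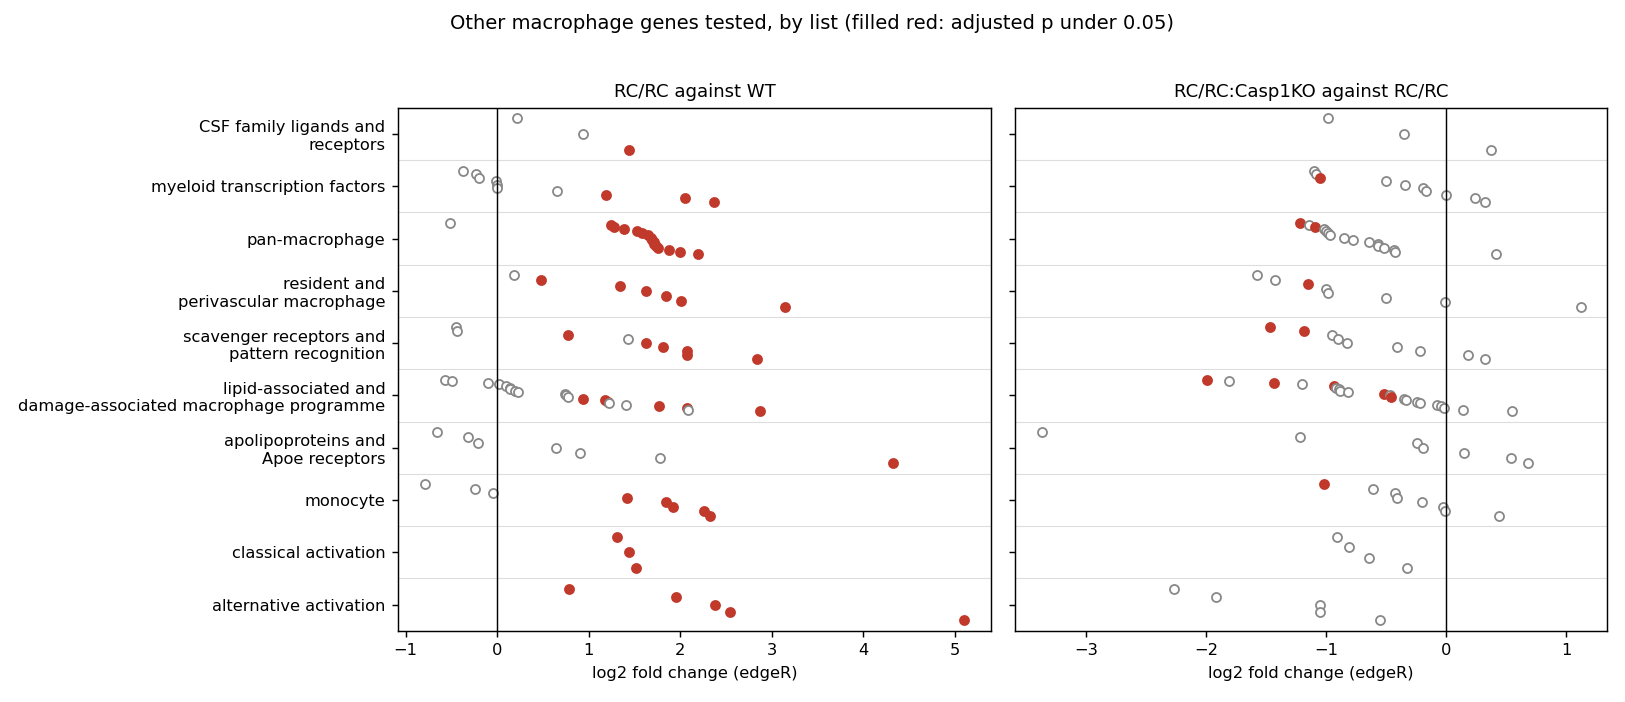
Log2 fold change of each other macrophage gene tested, by list, in RC/RC against WT (left) and RC/RC:Casp1KO against RC/RC (right), with filled red points where the edgeR adjusted p was under 0.05. On the left 51 of 89 points are filled, all right of 0, and on the right 12 of 91, all left of 0.

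Markers of other cell types moved in the same samples, and their part in the macrophage results was not tested. Leukocyte genes were called higher in RC/RC against WT for 5 of 5, with *Coro1a* the most abundant (15.2 FPKM; 1.77, SE 0.19, adjusted p = 0.000675), and summed to 81.9, 70.3, 70.4 and 68.6 CPM in the WT kidneys, 177, 182, 142 and 125 CPM in the RC/RC kidneys and 85.8, 104, 82.8 and 179 CPM in the RC/RC:*Casp1*KO kidneys. T cell genes were called for 8 of 10, led by *Cd5* (3.09, SE 0.59, adjusted p = 0.00932), *Trbc2* (2.32, SE 0.34, adjusted p = 0.00296, the most abundant at 3.49 FPKM) and *Cd3g* (2.11, SE 0.53, adjusted p = 0.0295), and summed to 9.92, 6.00, 7.75 and 6.32 CPM in the WT kidneys, 25.2, 41.7, 28.5 and 15.8 CPM in the RC/RC kidneys and 10.8, 13.6, 13.1 and 31.2 CPM in the RC/RC:*Casp1*KO kidneys. B cell and plasma cell genes were called for 6 of 7, led by the immunoglobulin J chain *Jchain*, listed as Igj (4.8, SE 0.42, adjusted p = 0.000278), *Mzb1* (2.03, SE 0.45, adjusted p = 0.0172) and *Cd79a* (1.86, SE 0.31, adjusted p = 0.00539), and their sums were 8.96, 11.1, 12.9 and 5.75 CPM in the WT kidneys, 166, 254, 149.8 and 161 CPM in the RC/RC kidneys and 57.7, 53.5, 72.9 and 152 CPM in the RC/RC:*Casp1*KO kidneys. For the leukocyte, T cell, and B cell and plasma cell sums, RC/RC:*Casp1*KO mouse 4 lay within the RC/RC range and its 3 group mates below it.

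Dendritic cell genes, which overlap with macrophages in the kidney in much of their expression, were called for 3 of 8: *Cd209a* (2.11, SE 0.27, adjusted p = 0.0015), *Xcr1* (1.13, SE 0.29, adjusted p = 0.031) and *Zbtb46* (0.46, SE 0.13, adjusted p = 0.0467), the most abundant at 2.84 FPKM. At an unadjusted edgeR p under 0.05, 7 of the 8 were higher and 0 lower, and DESeq2 called 4 higher and 0 lower. Neutrophil genes were low, with 4 of 12 tested and *S100a8* the most abundant at 1.13 FPKM, and edgeR called 0 of them (1 had an unadjusted p under 0.05, and DESeq2 called 1 higher and 0 lower). Of 6 natural killer cell genes 2 were tested and 0 called (1 at an unadjusted p under 0.05, and DESeq2 called 0 higher), with *Nkg7* at 1.40 FPKM. Fibroblast genes were called for 6 of 6, led by the collagens *Col1a1* (3.00, SE 0.34, adjusted p = 0.000806) and *Col3a1* (2.93, SE 0.33, adjusted p = 0.000844) and by *Dcn* (2.47, SE 0.24, adjusted p = 0.000394, the most abundant at 48.0 FPKM). They summed to 226, 159, 189 and 225 CPM in the WT kidneys, 889, 1443, 800.2 and 616 CPM in the RC/RC kidneys and 251, 364, 243 and 538 CPM in the RC/RC:*Casp1*KO kidneys, so mouse 4 was the highest of its group and below all 4 RC/RC mice, unlike its sums of immune genes. Lower in RC/RC:*Casp1*KO against RC/RC were *Col1a1* (−1.87, SE 0.47, adjusted p = 0.0367), *Lum* (−1.74, SE 0.43, adjusted p = 0.0344), *Col3a1* (−1.66, SE 0.40, adjusted p = 0.0335) and *Dcn* (−1.46, SE 0.23, adjusted p = 0.0088), and also the B cell gene *Cd79b* (−0.95, SE 0.26, adjusted p = 0.0456). All 78 marker genes had reads in at least 1 kidney. Against WT, the RC/RC:*Casp1*KO kidneys had the plasma cell genes *Jchain* and *Mzb1* and the fibroblast gene *Dcn* (1.02, SE 0.13, adjusted p = 0.00799) called higher, and without mouse 4 *Mzb1* lost its call (1.86 with all mice and 1.78 without, adjusted p = 0.106). Against RC/RC, *Lum* lost its call without mouse 4 (−1.60, adjusted p = 0.068) and *Pdgfrb* gained one, with *Col1a1*, *Col3a1* and *Dcn* called with and without it. With library size alone *Dcn* was called, and *Col1a1*, *Col3a1*, *Lum* and *Cd79b* were not (−1.82, −1.62, −1.68 and −0.91, adjusted p = 0.0529 to 0.0791). Adjusted p-values of the marker genes are from edgeR.

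Erythroid genes, the mark of red cells left in the kidney, went the other way, with 5 of 5 lower in RC/RC against WT. They were led by *Alas2* (−2.22, SE 0.26, adjusted p = 0.00111), *Hbb-bt* (−1.86, SE 0.32, adjusted p = 0.00572) and *Hba-a2* (−1.78, SE 0.42, adjusted p = 0.0235), with *Hbb-bs* the most abundant at 256 FPKM (−1.69, SE 0.25, adjusted p = 0.00325), and reads of the near-identical globin genes can be split between copies. The list summed to 901, 823, 649 and 477 CPM in the WT kidneys, 126, 269, 261 and 259 CPM in the RC/RC kidneys and 348, 258, 395 and 217 CPM in the RC/RC:*Casp1*KO kidneys, so both groups with the *Pkd1* alleles lay below WT, and 4 of the 5 were called lower in RC/RC:*Casp1*KO against WT, 3 with library size alone and only *Alas2* without RC/RC:*Casp1*KO mouse 4. Estimates with all mice and without that mouse were −1.37 and −1.29 for *Alas2*, −1.21 and −1.07 for *Hba-a1*, −1.18 and −1.04 for *Hbb-bs*, and −1.33 and −1.23 for *Hbb-bt*, with adjusted p-values of 0.116, 0.0934 and 0.0767 for the last 3 without it. With library size alone *Hba-a1* was not called (−1.09, adjusted p = 0.0517). The part of these transcripts in the macrophage results was not tested.

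**Figure D5:**
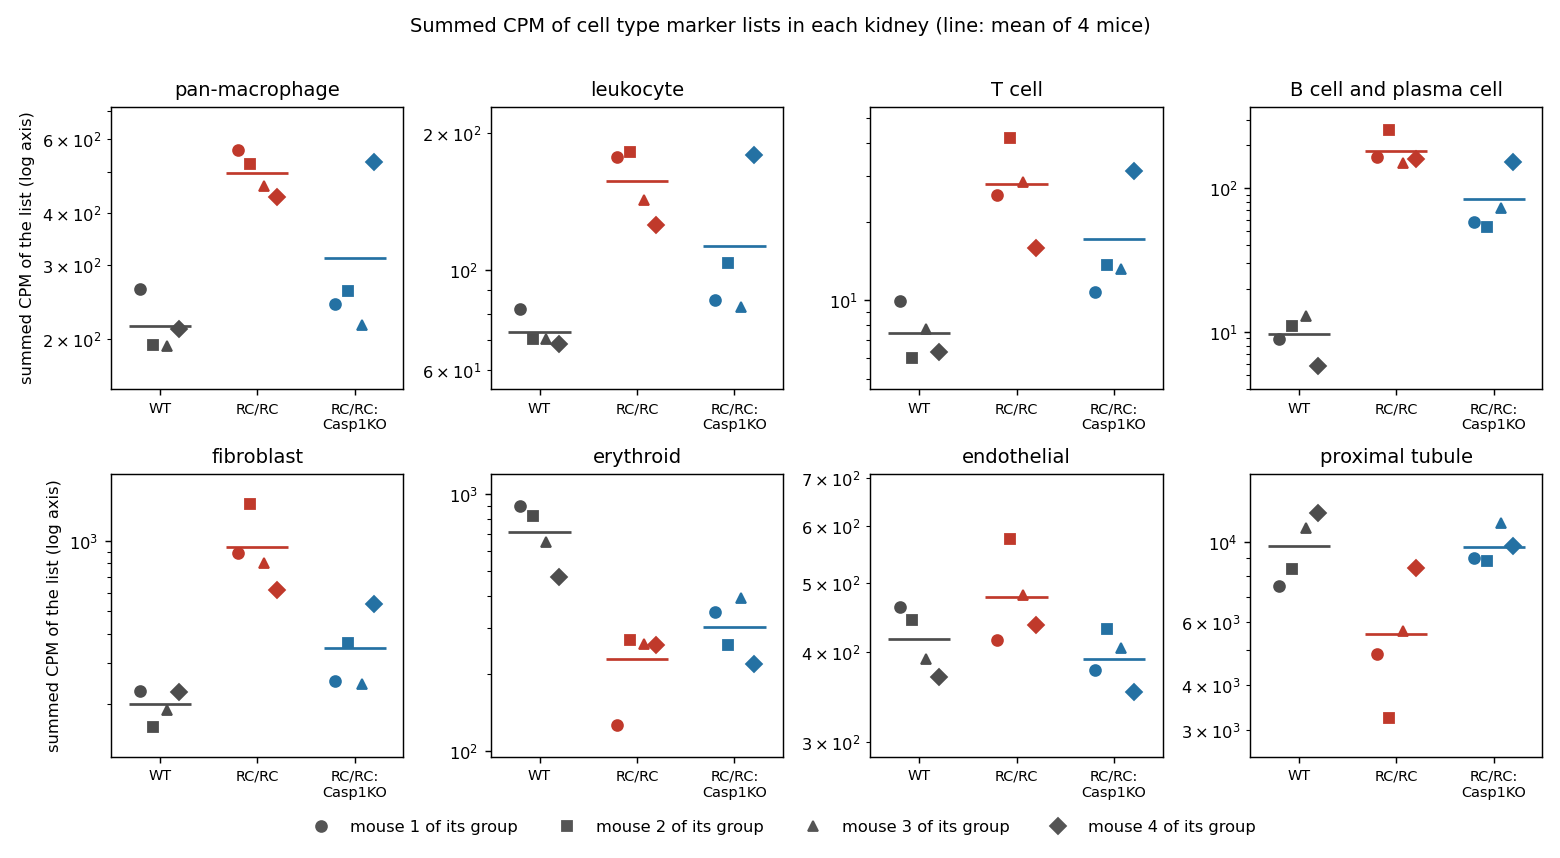
Summed CPM of 8 cell type marker lists in every kidney, on a log axis, with 1 symbol shape per mouse number within its group and a line at the mean of 4 mice. Macrophage and leukocyte sums of RC/RC:Casp1KO mouse 4 (diamond) lie in the RC/RC range, its fibroblast sum lies below all RC/RC mice, and erythroid sums are lower in both RC/RC groups than in WT.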

How the data were processed

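The authors deposited raw read counts per gene from poly(A) kidney RNA libraries. The submitters' processing notes name mm10, STAR and CASAVA 1.8, and the counting tool, annotation and strand setting are not given in the sources used here. The deposited gene lengths and coordinates were used, and the authors' fold changes, p-values, FPKM and group means were not. Columns carry the group of each mouse and a mouse number that does not match the labels' replicate numbers, so each column was assigned to a group only, and 0 columns were left over.

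The counts of each pair of groups were fitted with edgeR 4.0.16 (R 4.3.3; TMM, filterByExpr, glmQLFit and glmQLFTest), adjusted by Benjamini-Hochberg over all genes tested, and called at 0.05. The SE was derived from the estimate and its F statistic (estimate over the root of F). CPM used TMM factors of all 12 libraries, and FPKM the count, gene length and reads counted. Alternatives were DESeq2 1.42.0, RLE factors, library size alone, a minimum of 1 count in all, a minimum of 10 in each mouse, 1 fit over 12 mice, and each mouse left out in turn. Counts at an unadjusted p under 0.05 are given without a share of all genes and describe the named members or lists only. Counts of mice of the same group differed by more than sampling noise in all 18 pairs (chi-square per degree of freedom 15.7 to 128), so each was treated as a separate replicate. Mice 1 and 2 were alike in WT (17.7) and RC/RC:*Casp1*KO (15.7), as were mice 3 and 4 (16.4 and 31.8), against 67.1 to 127 between these pairs, and RC/RC mice 3 and 4 differed least in their group (37.2). No label ties this structure to sex, litter or batch, and its part in the results was not tested. The fits were tested on simulated data. Near copies were sought with BLAST 2.17.0 among GENCODE transcripts (95% identity over at least 100 bases).

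The members, the 22 lists (193 genes, all matched, 3 by an older symbol) and the tests were chosen with earlier results of these data known. Named genes are the members, *Casp1*, *Pkd1*, in each list the most abundant gene per length and the 3 called genes with the largest change in RC/RC against WT and in RC/RC:*Casp1*KO against RC/RC, list genes without reads, and the 5 genes most like *Csf1r* and *Trem2* (log2 of CPM + 0.1). *Mertk*, *Nr4a1*, *Aqp2*, *Hsd11b2*, *Cd79b*, *Hmgxb3*, *Lyz1* and further called genes of short lists were named after their values were seen. The effect of left-out mice, library size alone and DESeq2 on the lists was added after the data were seen.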

Additional observations from a re-analysis of the deposited data

Results flagged for a closer look

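Of 30 groups of 4 mice (10 genes in 3 groups), 7 had a mouse whose gap to the nearest other mouse exceeded Dixon's critical ratio of 0.829, and chance alone gives about 1 in 20. This was so for 5 genes of RC/RC:*Casp1*KO mouse 4: *Cd68* at 12.8 CPM (next mouse 5.44), *Mrc1* at 23.8 CPM (next 9.54), *Trem2* at 2.63 CPM (next 0.611), *Lyz2* at 126 CPM (next 48.0) and *Gpnmb* at 6.73 CPM (next 1.28). These 5 are values of 1 mouse and not 5 separate observations. *Mrc1* in WT mouse 2 was low at 4.05 CPM (next 5.63), and *Cd163* in RC/RC mouse 4 was high at 3.52 CPM (next 1.07).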

How the results depend on the processing

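In RC/RC against WT all 10 members kept their direction and their side of the threshold in every alternative that tested them, and 7 were called in each, except with at least 10 counts in every mouse, where *Trem2* and *Gpnmb* were not tested and 5 were called. The genes called in all were 1971, 3018 with DESeq2, and 1162 (without WT mouse 4) to 2440 with mice left out, with 1270 without RC/RC mouse 2. The 2 members called in RC/RC:*Casp1*KO against RC/RC became 5 with DESeq2, 3 with a minimum of 1 count and in 1 fit over 12 mice, 0 with library size alone, and 0 to 6 with mice left out. The 1797 genes called became 3182 with DESeq2, 993 with library size alone, and 438 (without RC/RC mouse 3) to 2789 (without RC/RC mouse 1) with mice left out, with 754 without RC/RC mouse 2 and 606, 440 and 810 without RC/RC:*Casp1*KO mice 1, 2 and 3, and 1407 without mouse 4 of that group. In RC/RC:*Casp1*KO against WT the 0 members called became 6 with DESeq2 (*Csf1*, *Csf1r*, *Mrc1*, *Lyz2*, *Gpnmb* and *Trem2*) and 0 to 1 with mice left out. The 311 genes called became 1390 with DESeq2, 167 with at least 10 counts in every mouse, and 108 (without WT mouse 4) to 547 (without RC/RC:*Casp1*KO mouse 3) with mice left out, with 122 and 119 without WT mice 1 and 2 and 147, 124 and 123 without RC/RC:*Casp1*KO mice 1, 2 and 4. Signs turned for values that passed no test, where leaving out mice gave −0.76 to 0.0057 for *Mrc1* (RC/RC mouse 1) and −1.10 to 0.041 for *Cd163* (RC/RC mouse 4) when RC/RC:*Casp1*KO mice were set against RC/RC, and against WT −0.51 to 0.22 for *Apoe* (WT mouse 2) and −0.17 to 0.41 for *Cd163* (RC/RC:*Casp1*KO mouse 3, and −0.053 for WT mouse 3). The cause of these changes was not tested. With library size alone the median of all genes tested was 0.075, 0.024 and 0.14 in the 3 comparisons, and the share of calls that were higher was 86.1%, 82.0% and 79.8% against 75.4%, 62.1% and 55.9%; 1 fit over 12 mice gave 67.9% in the last. No paired analysis was possible because the columns carry no replicate number of the labels, and no block was formed from the likeness of libraries. Depth limits *Trem2*, *Gpnmb* and *Cd163*, which had few reads in WT, and leaving out a mouse leaves 3 against 4.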

Other observations

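Of the 19 markers of the kidney's own tubule, glomerular and endothelial cells, edgeR called 0 higher and 3 lower in RC/RC against WT, beside 9.76% and 3.18% of all genes. For RC/RC:*Casp1*KO against RC/RC the counts were 2 higher and 0 lower, beside 7.23% and 4.41%. DESeq2 called 3 higher and 5 lower in the former, beside 8.45% and 4.32% of all genes, and 4 higher and 2 lower in the latter, beside 7.35% and 5.97%. Proximal tubule markers summed to 7525, 8417, 10905 and 11999 CPM in the WT kidneys, 4871, 3242, 5664 and 8462 CPM in the RC/RC kidneys and 8996, 8806, 11227 and 9695 CPM in the RC/RC:*Casp1*KO kidneys, and the lowest RC/RC:*Casp1*KO value was above the highest of RC/RC. Of 5 markers 1 was called lower in RC/RC against WT, the glucose transporter *Slc5a2* (−1.23, SE 0.28, adjusted p = 0.0199), and 1 higher in RC/RC:*Casp1*KO against RC/RC, the endocytic receptor *Lrp2* (1.52, SE 0.28, adjusted p = 0.0144), while the phosphate transporter *Slc34a1*, the most abundant at 1553 FPKM, was not called in either (−0.71, SE 0.31, adjusted p = 0.159, and 0.49, SE 0.34, adjusted p = 0.349). DESeq2 called 3 of the 5 lower in RC/RC against WT (*Lrp2*, *Slc5a2* and *Slc5a12*) and 3 higher in RC/RC:*Casp1*KO against RC/RC. RC/RC:*Casp1*KO mouse 4 lay with its own group in this sum. Of 5 distal tubule and collecting duct markers, edgeR called 1 in each of these comparisons: *Slc12a3*, the thiazide-sensitive transporter, was lower in RC/RC against WT (−2.03, SE 0.33, adjusted p = 0.00444) and higher in RC/RC:*Casp1*KO against RC/RC (1.44, SE 0.39, adjusted p = 0.0454). The second call was lost without RC/RC:*Casp1*KO mouse 4 (1.49, adjusted p = 0.0685) and with library size alone (1.49, adjusted p = 0.0631), with estimates as high as with all mice. In RC/RC against WT 2 of the 5 were higher at an unadjusted edgeR p under 0.05, *Aqp2* (1.05, SE 0.34, adjusted p = 0.0739) and *Hsd11b2* (0.74, SE 0.24, adjusted p = 0.0762), and DESeq2 called these 2 higher and *Slc12a3* lower. *Umod*, the most abundant at 1355 FPKM, was not called (−0.48, SE 0.22, adjusted p = 0.186). Of 4 podocyte markers *Nphs1*, which encodes nephrin, was lower in RC/RC against WT (−0.62, SE 0.16, adjusted p = 0.0372) but not called with library size alone (−0.52, adjusted p = 0.0905), and *Podxl*, the most abundant at 51.2 FPKM, was not called (−0.27, SE 0.17, adjusted p = 0.32). Of 5 endothelial markers edgeR called 0 in RC/RC against WT (2 had an unadjusted p under 0.05, and DESeq2 called 1 higher and 0 lower), with *Pecam1* the most abundant at 28.7 FPKM (0.42, SE 0.15, adjusted p = 0.0958). Values in this paragraph are log2 fold changes with adjusted p-values from edgeR, 4 mice a group.

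*Apoe* had a wide spread within WT. WT mice 1 and 2 had 746 and 1003 CPM and WT mice 3 and 4 had 216 and 273 CPM, and in the other groups the 4 mice spread by 2.00-fold (RC/RC) and 1.71-fold (RC/RC:*Casp1*KO) from lowest to highest. Mice 1 and 2 were also above mice 3 and 4 in RC/RC (815 and 1037 against 699 and 517 CPM). The same held in RC/RC:*Casp1*KO (617 and 547 against 359.8 and 395 CPM). In WT and RC/RC:*Casp1*KO these are the like pairs of libraries described under the processing, whose part in the spread was not tested.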
